A study of Mus musculus with 15 samples.

Results

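Genes of the postsynaptic density and the dendritic spine were followed as a named set of 40 members among the 33223 genes of the count tables. The members were chosen by name, with earlier results of these data known, from scaffolds, linkers, enzymes, actin regulators and adhesion proteins of the postsynaptic compartment, so that their counts and medians describe the set and do not test it. All 40 were found in the tables and passed the filter on low counts in each comparison. The RNA came from cortex of mice that had received a controlled cortical impact (CCI), a model of traumatic brain injury, on the right parietal side 1 day earlier. WT mice carried floxed EphA4 alleles (EphA4f/f) without Cre, and KO mice carried the same floxed alleles with VeCadCreERT2, in which endothelial cells make a Cre recombinase from the VE-cadherin promoter that needs tamoxifen to act. All groups were injured, so none gives an uninjured baseline, and the labels state no age, sex or tamoxifen schedule. The dissociated cortex was passed over CD45 and CD31 microbeads, and libraries were made from the CD45 fraction (3 WT and 4 KO) and from the flow-through (4 WT and 3 KO), the cells that neither bead kept. Neurons carry neither bead's target antigen.

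The postsynaptic density is a dense protein meshwork under the membrane of excitatory synapses, most of which sit on dendritic spines. Scaffolds of the PSD-95 family hold glutamate receptors near the membrane, Dlgap proteins tie them to Shank proteins deeper in the meshwork, and Shank and Homer proteins connect it to receptors, calcium stores and the actin of the spine. Calcium entering through the receptors acts on calmodulin and its kinase, and neuroligins and leucine-rich repeat proteins hold the postsynaptic membrane to the axon terminal.

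Total counts ran from 19204814 to 27270907 per flow-through library and from 11574414 to 31337948 per CD45 library. Mitochondrially encoded genes took 2.58 to 4.47% of flow-through counts and 0.747 to 1.42% of CD45 counts. A further library is labelled flow-through WT (numbered replicate 5 here), yet its column is among those of the CD45 table. Its markers resemble the CD45 libraries (10 monocyte and macrophage genes summed to 6479 CPM there, against 1.9 to 4.9 CPM in the flow-through libraries). It was left out of the results below. Epha4, the targeted receptor, was at -0.07 log2 units between genotypes in the flow-through (SE 0.09, adjusted p = 0.849 by edgeR), which does not check the deletion because endothelial cells are not isolated here. Summed over lists of marker genes, the flow-through held 1513 to 2009 CPM of 18 general neuron genes, 8318 to 11221 CPM of 13 astrocyte genes and 24614 to 40938 CPM of 12 oligodendrocyte genes. Endothelial genes (13) summed to 268 to 392 CPM in the flow-through and to 698 to 870 CPM in CD45 libraries, so neither fraction was free of endothelial RNA. No animal is named in the labels. The p-values therefore rest on the spread of these libraries alone, which may be technical, and libraries of both fractions may come from the same mice.

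Promoter windows are shown for 3 members that rose in the KO flow-through and whose window ends at the first base of the annotated gene. Dlgap1 also rose and had such a window, which is not shown and held none of the motifs marked below. Each holds the 250 bases before the start, 5′ to 3′ on the gene's strand, from RefSeq on GRCm38. Capitals mark matches on either strand to the GC box GGGCGG, the Egr site GCGGGGGCG and the cAMP response element TGACGTCA.
Iqsec3 (chr6:121473679-121473928, minus strand): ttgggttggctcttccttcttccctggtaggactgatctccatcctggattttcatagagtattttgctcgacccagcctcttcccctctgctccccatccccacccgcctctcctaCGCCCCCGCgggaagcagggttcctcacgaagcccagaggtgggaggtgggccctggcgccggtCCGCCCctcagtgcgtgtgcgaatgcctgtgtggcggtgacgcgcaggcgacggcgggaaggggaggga
Neurl1a (chr19:47178570-47178819, plus strand): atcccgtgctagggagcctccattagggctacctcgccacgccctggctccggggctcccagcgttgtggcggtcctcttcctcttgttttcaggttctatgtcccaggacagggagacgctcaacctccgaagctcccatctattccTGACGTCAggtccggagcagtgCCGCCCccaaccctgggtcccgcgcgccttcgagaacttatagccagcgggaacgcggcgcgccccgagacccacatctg
Psd (chr19:46327157-46327406, minus strand): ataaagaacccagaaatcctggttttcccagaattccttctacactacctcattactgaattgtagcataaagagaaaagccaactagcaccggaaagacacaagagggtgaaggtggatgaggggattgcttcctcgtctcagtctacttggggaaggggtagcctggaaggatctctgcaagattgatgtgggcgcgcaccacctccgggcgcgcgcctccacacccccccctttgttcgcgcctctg
Of the members, 29 had at least 1 window and together 47, of which 18 belonged to 13 members that rose in the KO flow-through and 29 to 16 other members. The GC box was in 9 of the 18 and in 16 of the 29, against 32.7% of 32851 windows of all genes. Neurl1a held the cAMP response element, the single match among the 47 windows, against 1.55% of all. The Egr site was in 2 of the 18 (Iqsec3 and Shank3) and 2 of the 29, against 2.57% of all, and the TATA box TATAAA in 0 of the 18 and 4 of the 29, against 12.4% of all. The E box CACGTG was in 1 of the 18 and 3 of the 29, against 6.02% of all. An Egr site can overlap a GC box, and such matches describe letters and not binding.

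In the flow-through, 16 of the 40 members rose in KO libraries, 0 fell and 24 did not pass the test (edgeR quasi-likelihood test, adjusted p under 0.05 over 16546 genes). Of all genes tested, 1.42% were called higher and 0.151% lower. The estimate was positive for 38 members, with a median log2 fold change of 0.44 against -0.01 over all genes. The KO libraries lay all above the WT libraries for 25 members and all below for 1, Nlgn3, while 6.62% and 4.9% of all genes were separated in these directions. The increases were spread over scaffolds, Dlgap linkers, Arf regulators, calmodulin signalling, actin regulators and the receptor gene Lingo1. No Homer, neuroligin or Lrrtm gene passed. More cells of a type and more RNA per cell, in neurons or in other cells, cannot be told apart in bulk libraries. This holds for these and all other differences below.

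**Figure D1:**
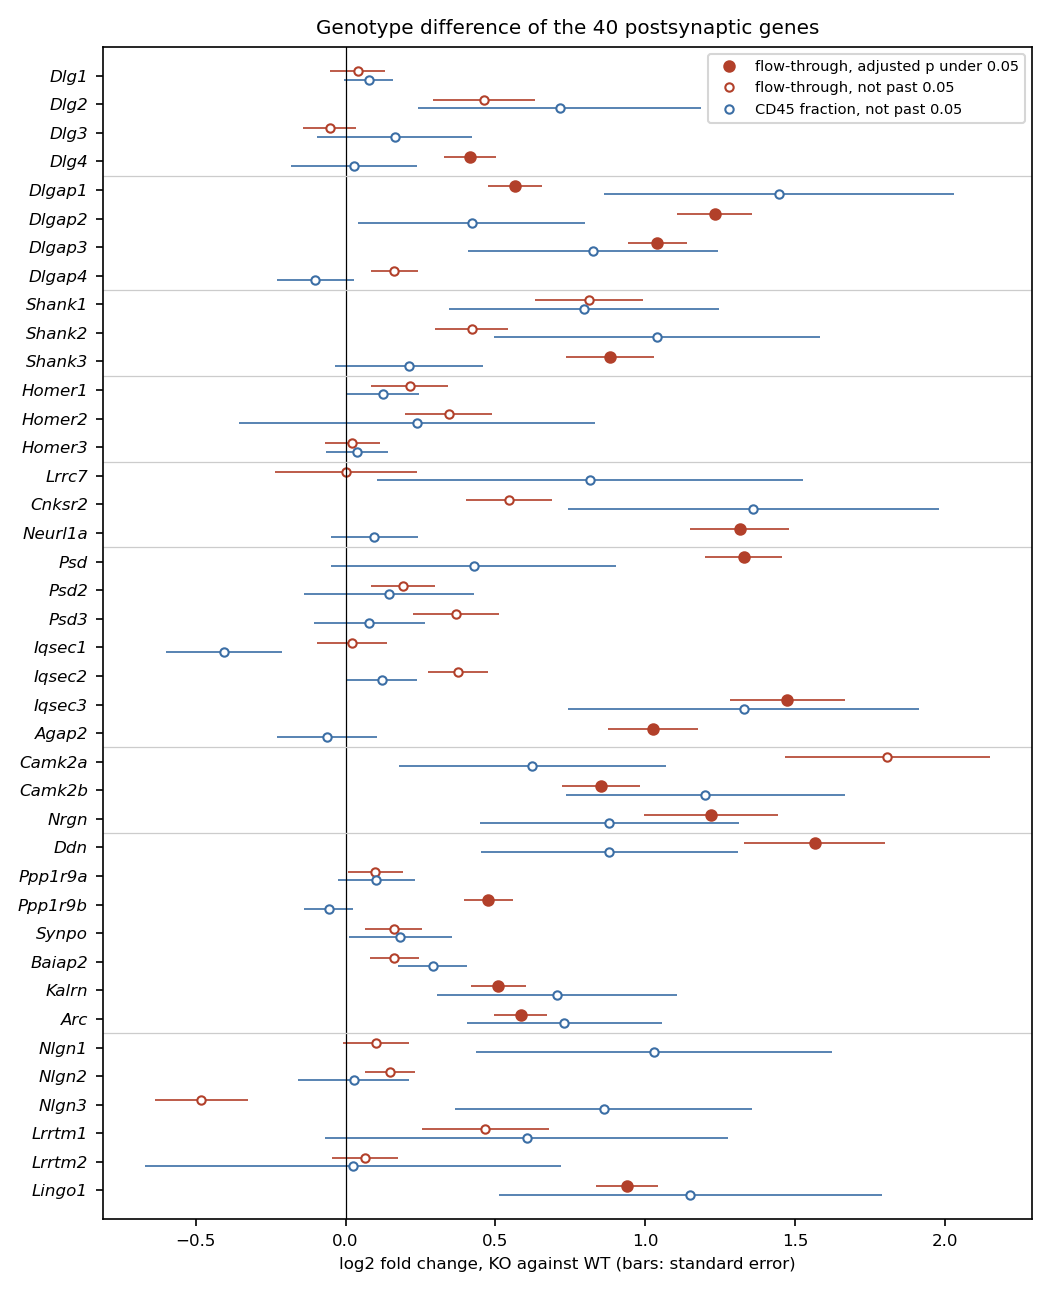
Log2 fold change of each of the 40 genes in KO against WT libraries, with standard error bars, in the flow-through (red) and the CD45 fraction (blue). Filled points passed the edgeR test; grey lines part the groups by role. The 16 filled points are all in the flow-through and all to the right of 0.

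Among the scaffolds of the PSD-95 family, 1 of 4 rose. Dlg4, which encodes PSD-95 itself, ran from 93.5 to 99.2 CPM in WT and from 114 to 136 CPM in KO libraries (CPM, the gene's share of the TMM-scaled library total). Its log2 fold change was 0.42 (SE 0.09) with an edgeR adjusted p of 0.0267. The genotypes did not overlap, and the call was lost without any of WT replicates 2, 3 or 4 or KO replicates 1 or 2 (adjusted p 0.0645 to 0.148). Dlg1 (SAP97), which had the highest CPM of the family, had a mean of 294 ± 21.7 CPM over the WT libraries (SD, n = 4) and of 303 ± 17.2 CPM over the KO libraries (SD, n = 3), with a fold of 0.04 on the log2 scale (95% interval -0.14 to 0.22). Dlg3 was at -0.05 (interval -0.23 to 0.12), and Dlg2, at 0.46 (interval 0.13 to 0.80), did not pass (edgeR adjusted p = 0.321). Without WT replicate 4, Dlg2 passed at 0.63 (edgeR adjusted p = 0.047).

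Of the Dlgap linkers, which tie PSD-95 to Shank, 3 of 4 rose. Dlgap2 was measured at 6.86, 6.46, 6.31 and 6.98 CPM in WT replicates 1 to 4 and at 17.8, 14.6 and 14.6 CPM in KO replicates 1 to 3. The WT libraries lay close together, and each KO library stood well above them (log2 fold change 1.23 with SE 0.13, edgeR adjusted p = 0.000505). Dlgap3, the linker whose mRNA is carried into dendrites, was at 18.6, 18.9, 17.7 and 19.8 CPM in WT and at 43.3, 38.1 and 34.5 CPM in KO libraries. Again the groups did not overlap (1.04, SE 0.10, edgeR adjusted p = 0.000371). Dlgap1 was higher in CPM and moved less, with 53, 52.8, 49.1 and 49.1 CPM in WT and 77.6, 81.9 and 67.1 CPM in KO libraries (0.57, SE 0.09, edgeR adjusted p = 0.00524). Dlgap4, the family member with the highest CPM in the flow-through, had a mean of 94.5 ± 3.2 CPM in WT (SD, n = 4) and 106 ± 4.03 CPM in KO libraries (SD, n = 3) and did not pass (0.16, SE 0.08, edgeR adjusted p = 0.471).

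Shank proteins, the deep scaffolds of the density, were all higher in estimate and 1 of 3 rose. Shank3 was at 21, 27, 24.9 and 32.7 CPM in WT and at 56.9, 48.9 and 40.6 CPM in KO libraries. All KO libraries lay above all WT libraries (0.88, SE 0.15, edgeR adjusted p = 0.0111). Shank1 separated the genotypes as well (0.81, SE 0.18) and missed the threshold (edgeR adjusted p = 0.0697), and passed without WT replicate 4 (0.96, adjusted p = 0.0157) or without KO replicate 3 (0.96, adjusted p = 0.0413). Shank2 was at 0.42 (edgeR adjusted p = 0.148). Of the Homer adaptors, which bind Shank and metabotropic glutamate receptors, Homer2 had the smallest p. It was at 8.34, 8.08, 6.41 and 9.2 CPM in WT and at 10.1, 9.64 and 10.8 CPM in KO libraries, a separation of small size (0.34, SE 0.14, edgeR adjusted p = 0.381). Homer1 (0.21) and Homer3 (0.02) overlapped between genotypes.

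Neurl1a, a ubiquitin ligase of dendrites, was the 1 of 3 other scaffold and ligase genes that rose. It was measured at 10.3, 9.31, 7.38 and 11.5 CPM in WT and at 26.2, 27.4 and 18.6 CPM in KO libraries. Each KO library exceeded the highest WT library (1.32, SE 0.16, edgeR adjusted p = 0.00144). Of its exon sequence 9.47% overlaps another gene on the same strand. Cnksr2, a scaffold of the Ras pathway, was at 0.55 (SE 0.14, edgeR adjusted p = 0.0959) and passed without KO replicate 3 (0.69, adjusted p = 0.0229), and Lrrc7 (densin) was at 0.00, with an interval of -0.46 to 0.47.

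Arf regulators steer membrane traffic and receptor turnover in the spine, and 3 of 7 rose. Iqsec3, an exchange factor known for inhibitory synapses, was at 10.8, 11.6, 9.56 and 17 CPM in WT and at 39.3, 36.2 and 27.2 CPM in KO libraries. WT replicate 4 was the highest of its group and still below every KO library (1.47, SE 0.19, edgeR adjusted p = 0.00378). Psd, an Arf6 exchange factor, was at 28, 30.4, 24.2 and 31.8 CPM in WT and at 81.4, 77.3 and 57.1 CPM in KO libraries. The gap between the groups was wider than the spread within either (1.33, SE 0.13, edgeR adjusted p = 0.000505). Agap2 (PIKE), an Arf GTPase-activating protein, was at 51.1, 57.5, 47.3 and 66.2 CPM in WT and at 131, 123 and 86.2 CPM in KO libraries (1.03, SE 0.15, edgeR adjusted p = 0.00536). The close relatives did not pass, with Psd2 at 0.19, Psd3 at 0.37, Iqsec1 at 0.02 (interval -0.21 to 0.25) and Iqsec2 at 0.38 (edgeR adjusted p = 0.0994).

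**Figure D2:**
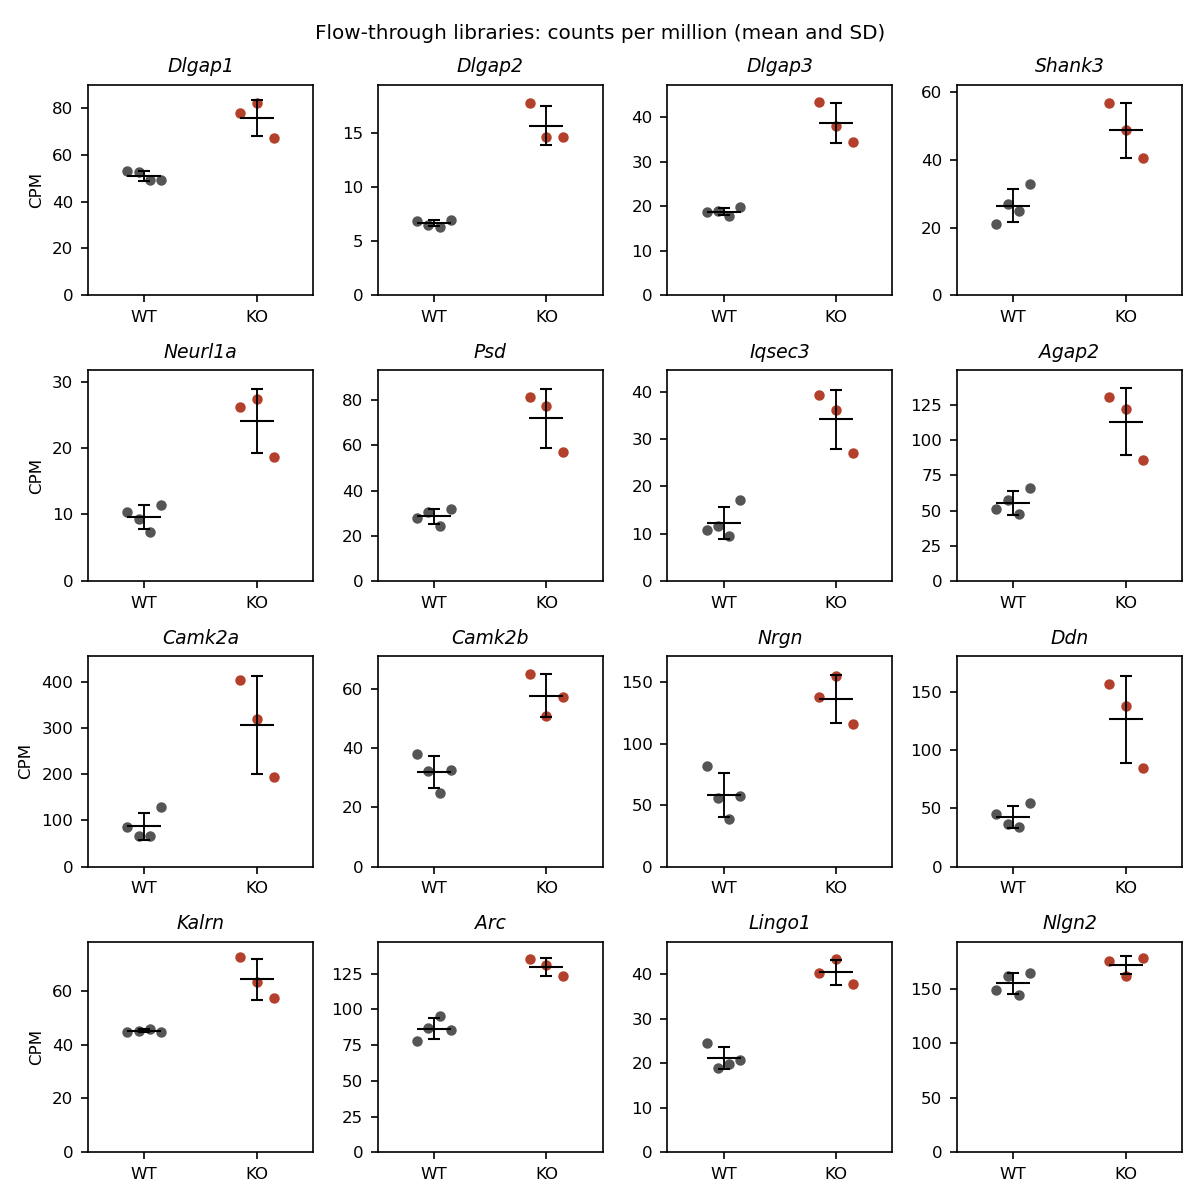
TMM-scaled CPM in each flow-through library for 16 genes, WT in grey (4 libraries) and KO in red (3 libraries), in replicate order from left to right; horizontal bars show the mean and whiskers the SD, and each vertical axis starts at 0. Besides 14 genes that passed, Camk2a and Nlgn2 are shown, which did not; KO replicate 3 is the lowest red point for Psd, Agap2, Ddn and Neurl1a.

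Of the calcium and calmodulin genes 2 of 3 rose. Nrgn (neurogranin), which stores calmodulin at the membrane, was at 82, 55.6, 38.9 and 57.7 CPM in WT and at 138, 155 and 116 CPM in KO libraries. The groups were apart, and WT replicate 1 stood above the other WT libraries (1.22, SE 0.22, edgeR adjusted p = 0.0418). The call was lost without WT replicate 2 or 4 or any 1 of the KO libraries (adjusted p 0.107 to 0.17). Camk2b, the beta subunit of calcium/calmodulin-dependent kinase II that binds actin, was at 38.1, 32.5, 24.9 and 32.6 CPM in WT and at 65.1, 50.8 and 57.4 CPM in KO libraries (0.85, SE 0.13, edgeR adjusted p = 0.00524). Camk2a, the alpha subunit of the same kinase, had the largest fold change of the 40 and is named here after its values were seen. It was at 85.9, 67.1, 66.2 and 130 CPM in WT and at 404, 320 and 194 CPM in KO libraries. No library overlapped, yet both groups were widely spread and the test was not passed (1.81, SE 0.34, edgeR adjusted p = 0.0832). It was passed without WT replicate 4 (2.07, edgeR adjusted p = 0.0167) and by DESeq2 (adjusted p = 0.000228).

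Proteins of spine actin and of dendrites gave 4 of 7 higher. Ddn (dendrin), a protein of dendrites whose mRNA is carried there, was at 44.9, 37, 34.2 and 54.5 CPM in WT and at 157, 138 and 84.5 CPM in KO libraries. KO replicate 3 was the lowest KO library and still above WT replicate 4 (1.57, SE 0.24, edgeR adjusted p = 0.0198). The call was lost without WT replicate 1 or 2 or KO replicate 1 or 2 (adjusted p 0.0519 to 0.0932). Arc, an immediate early gene whose protein drives endocytosis of AMPA receptors, was at 77.9, 87.3, 95.6 and 85.6 CPM in WT and at 135, 131 and 123 CPM in KO libraries (0.58, SE 0.09, edgeR adjusted p = 0.00383). Its groups did not overlap either.

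Kalrn (kalirin), an exchange factor that enlarges spines, was at 44.8, 45.1, 45.8 and 44.6 CPM in WT and at 72.3, 63.1 and 57.2 CPM in KO libraries. The WT libraries were nearly equal, and the KO libraries lay above them (0.51, SE 0.09, edgeR adjusted p = 0.0118, or 0.0736 without KO replicate 1). Ppp1r9b (spinophilin), which brings protein phosphatase to spines, ran from 243 to 267 CPM in WT and from 336 to 366 CPM in KO libraries (0.48, SE 0.08, edgeR adjusted p = 0.0103). It was lost without KO replicate 1 or 2 (adjusted p 0.0615 and 0.0635). Its paralog Ppp1r9a (neurabin, 0.10), Synpo (synaptopodin of the spine apparatus, 0.16) and Baiap2 (IRSp53, 0.16) did not pass.

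Of the adhesion and organiser proteins 1 of 6 rose. Lingo1, a leucine-rich repeat receptor that restrains neurite growth, was at 24.6, 19, 19.9 and 20.8 CPM in WT and at 40.2, 43.3 and 37.7 CPM in KO libraries. The groups stood apart by more than the range within either (0.94, SE 0.10, edgeR adjusted p = 0.000551). The neuroligins, which bind neurexins across the cleft, did not pass. Nlgn1 was at 0.10 and Nlgn2, the form of inhibitory synapses, at 0.15 (interval -0.02 to 0.31). Nlgn3, at -0.48 (SE 0.15, edgeR adjusted p = 0.212), was lower in every KO library, and 41.2% of its exon sequence overlaps a gene on the same strand, which makes it uncertain. The neurexin ligands Lrrtm1 (0.46) and Lrrtm2 (0.06) did not pass either.

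Other genes of the postsynaptic compartment, 56 in a separate list, gave 7 higher, 0 lower and 49 not called in the KO flow-through. Of all genes tested 1.42% were higher and 0.151% lower. The median log2 fold change of the list was 0.16, against -0.01 over all genes. The increases with the smallest p were those of Rph3a (rabphilin, 0.94, SE 0.08), Nsmf (0.47, SE 0.09), Cyfip2 of the actin-regulating WAVE complex (0.45, SE 0.09) and Cacng3, an AMPA receptor auxiliary subunit (1.29, SE 0.25). Their edgeR adjusted p values were 0.000283, 0.0172, 0.0192 and 0.0213.

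Markers of neurons were read beside the members. Of 18 general neuron genes, 14 had positive estimates, with a median of 0.32. The KO libraries lay all above the WT libraries for 8 of them and all below for 0, and 8 had an unadjusted edgeR p under 0.05, all higher. Of all 16546 genes tested, 1814 had such a p in either direction, while 1.42% were called higher and 0.151% lower. Of 12 excitatory neuron genes 2 rose, Slc17a7, the vesicular glutamate transporter (1.19, edgeR adjusted p = 0.0343), and the upper-layer factor Cux2 (0.50, edgeR adjusted p = 0.027), with a median of 0.25. Of 8 inhibitory neuron genes tested 1 fell, Gad2 (-0.42, edgeR adjusted p = 0.0494), with a median of -0.04. Summed per library, general neuron genes ran from 1513 to 1788 CPM in WT and 1587 to 2009 CPM in KO libraries, which overlap. Excitatory genes ran from 163 to 203 CPM in WT and 228 to 266 CPM in KO libraries, which do not. The median log2 deviation over the 12 excitatory genes does overlap, since WT replicate 1 (0.05) was above KO replicate 3 (-0.03). The members themselves summed to 2294 to 2594 CPM in WT and 3025 to 3682 CPM in KO libraries. The part of a changed neuron content in the members' increase was not tested.

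Of 17 genes of the activity and dissociation response, 2 rose, the transcription factors Egr4 (1.69, edgeR adjusted p = 0.00253) and Egr3 (0.69, edgeR adjusted p = 0.0337), with a median of -0.07. Over all genes 1.42% were called higher. None of the astrocyte (13), oligodendrocyte (12), oligodendrocyte precursor (8), neuroblast (6), microglia (8), monocyte and macrophage (2), neutrophil (5) or endothelial (13) genes tested passed. Their medians were 0.08, 0.03, 0.13, -0.38, 0.05, 0.65, -0.18 and -0.20. All 6 neuroblast genes had negative estimates, 4 of them with an unadjusted edgeR p under 0.05. For 2 of the 6 the KO libraries lay all below the WT libraries, against 4.9% of all genes. Of the endothelial genes 11 were negative and 2 positive, and of the astrocyte genes 3 and 10. Of the monocyte and macrophage list, 2 of 10 genes had 0 counts in every flow-through library.

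The members that rose also differed from the others in base composition. The 16 members that rose had a median GC content of 59.1%, the other 24 members 52.2% and all genes tested 49.96%. The counts of KO replicate 3 tilted toward GC-rich genes by 0.41 log2 units (genes above 60% GC against those below 45%), against -0.22 to 0.06 in the WT libraries and -0.005 and 0.07 in the other KO libraries. This library was also the lowest KO library for 15 of the 16 members. With each library's trend on GC content and exon length removed, 8 members passed, namely Dlgap2 (1.14), Dlgap3 (0.75), Psd (1.13), Neurl1a (1.12), Iqsec3 (1.34), Arc (0.45), Lingo1 (0.78) and Cnksr2 (0.62). Over all genes, 144 of 16530 were then higher and 35 lower. The part of base composition in the members' increase was not tested. In a fit of all 14 libraries together, which estimates the spread over both fractions, 4 members passed (Neurl1a, Ppp1r9b, Agap2 and Dlgap2), among 26 of 18098 genes higher and 4 lower. The folds there were as large for members that no longer passed, such as Psd (1.34), Iqsec3 (1.48), Ddn (1.57), Lingo1 (0.95) and Dlgap3 (1.05). With WT replicate 5, the library left out, counted among the WT libraries, 0 members and 0 of 16656 genes passed by edgeR, and 389 genes had an unadjusted p under 0.05.

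**Figure D3:**
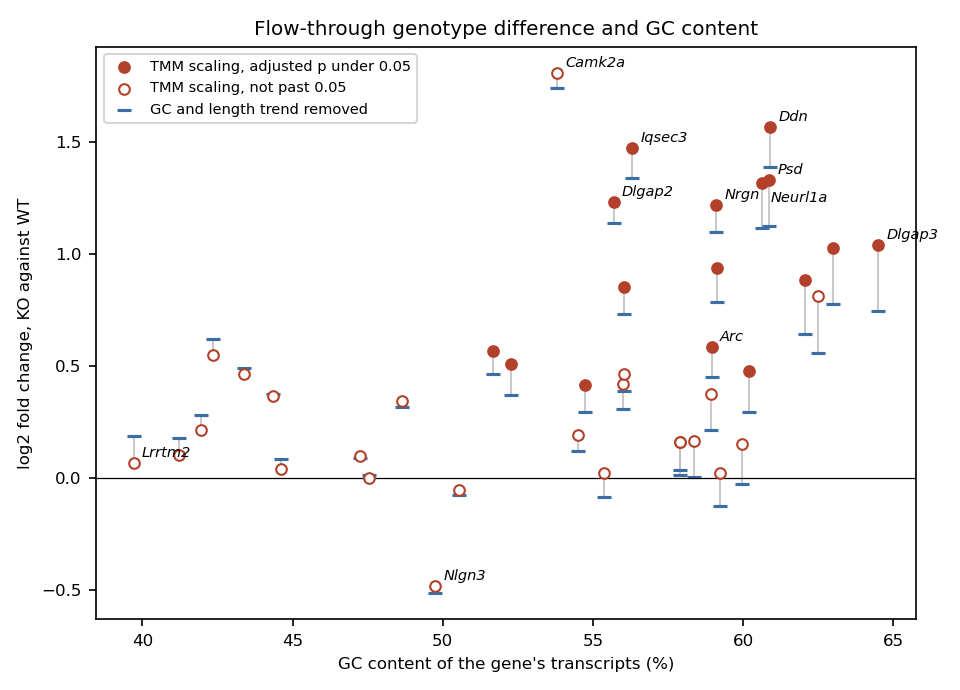
Log2 fold change in KO against WT flow-through libraries (vertical axis) against the GC content of each gene's transcripts in percent, for the 40 genes. Red points are the TMM-scaled fit, filled where the edgeR test was passed, and blue dashes the same genes after each library's trend on GC content and exon length was removed. The dashes of GC-rich genes lie below their points, and Dlgap3 moves from 1.04 to 0.75.

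In the CD45 fraction no member passed between genotypes, and neither did any other gene (0 of 15660, a share of 0.0%). At an unadjusted edgeR p under 0.05 there were 4 members, all higher in KO, against 4.43% of all genes. DESeq2 called 9 genes in this comparison and 0 members. The estimate was positive for 36 members with a median of 0.36 against 0.02 over all genes. No member separated the genotypes, against 2.47% of all genes with KO all above WT and 2.88% with KO all below.

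The 4 members with the smallest p were Baiap2, Camk2b, Dlgap1 and Iqsec3, each with an edgeR adjusted p of 0.974 (unadjusted p 0.0302, 0.0312, 0.0358 and 0.0491 in that order). Baiap2, an actin regulator that shapes the membrane, was at 31.3, 29.2 and 38.6 CPM in WT replicates 1 to 3 and at 36.8, 41.1, 40.1 and 43.5 CPM in KO replicates 1 to 4 (0.29, SE 0.11). WT replicate 3 lay within the KO range. Camk2b was at 1.97, 5.12 and 3.96 CPM in WT and at 3.33, 12.8, 8.74 and 9.26 CPM in KO libraries (1.20, SE 0.47). Dlgap1 was at 1.22, 1.92 and 1.74 CPM in WT and at 1.08, 7.28, 3.09 and 6.36 CPM in KO libraries (1.45, SE 0.58). KO replicate 1 was below every WT library for Dlgap1, and KO replicate 2 was the highest for both genes. Iqsec3 was at 0.672, 1.68 and 1.7 CPM in WT and at 0.987, 6.19, 2.74 and 3.78 CPM in KO libraries (1.33, SE 0.59).

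Single libraries stood at the edge of their group for many members in this fraction. WT replicate 1 was the lowest WT library for 35 of 40 members and WT replicate 3 the highest for 27. KO replicate 1 was the lowest KO library for 25, and KO replicates 2 and 4 were the highest for 18 and 17. WT replicate 3 tilted toward GC-rich genes by 0.35 log2 units, against -0.16 to 0.08 in the other CD45 libraries. Its monocyte and macrophage genes summed to 3437 CPM, against 7107 and 7145 in the other WT and 4539 to 7369 in KO libraries. Its oligodendrocyte genes summed to 1570 CPM, against 450 and 394 in WT and 430 to 972 in KO libraries. The part of these in the members' values was not tested. The 18 general neuron genes were at 146, 174 and 181 CPM summed in WT and 133, 322, 193 and 224 CPM in KO libraries, and all 18 had positive estimates (median 0.75). The part of neuronal RNA among the CD45 cells in these differences was not tested.

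**Figure D4:**
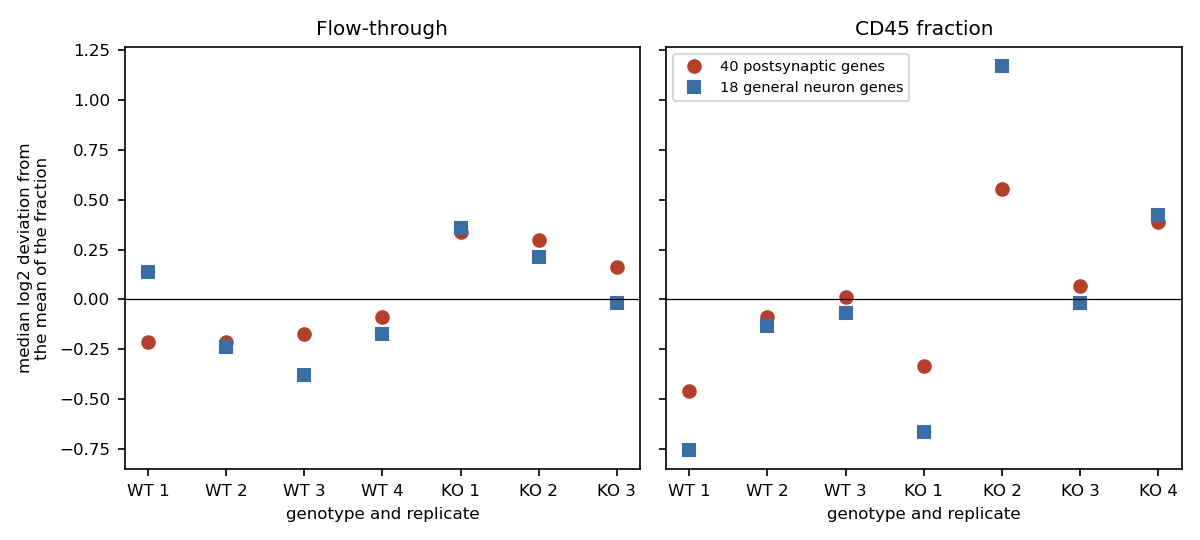
Median log2 deviation from the mean of the fraction, in each library, over the 40 members (circles) and over 18 general neuron genes (squares), flow-through on the left and CD45 on the right. In the CD45 fraction both lists are lowest in WT 1 (-0.46 and -0.75) and highest in KO 2 (0.55 and 1.17); in the flow-through the members part the genotypes and the neuron genes do not.

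The 6 members with the highest CPM in the CD45 fraction were Iqsec1, Ppp1r9b, Dlgap4, Dlg1, Homer1 and Baiap2. Iqsec1 (BRAG2), an Arf6 exchange factor of many cell types, was at 367, 367 and 581 CPM in WT and at 258, 314, 361 and 392 CPM in KO libraries, with WT replicate 3 above all others (-0.41, SE 0.19, edgeR adjusted p = 0.974). Ppp1r9b was at 282, 289 and 296 CPM in WT and at 290, 280, 259 and 281 CPM in KO libraries. Its genotype interval was -0.22 to 0.11 on the log2 scale, beside an estimate of 0.48 in the flow-through. The edgeR test of that difference between fractions, given below, was not passed. Dlgap4 was at 75.4, 81.2 and 99.7 CPM in WT and at 73.8, 74.2, 74.3 and 96.4 CPM in KO libraries, and 1 library of each genotype stood above the others. Dlg1 was at 73.8, 77.9 and 78.7 CPM in WT and at 81.1, 84.4, 73.9 and 84.4 CPM in KO libraries, and Homer1 at 38.6, 37 and 47.5 CPM in WT and at 39.4, 41.5, 49.3 and 48.7 CPM in KO libraries. Both overlapped between genotypes.

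Whether the genotype difference itself differed between fractions was tested in a fit of all 14 libraries. No member passed (0 of 18098 genes, a share of 0.0%), and 6 members had an unadjusted p under 0.05, against 7.21% of all genes. By DESeq2, 3 members passed, Neurl1a, Agap2 and Ppp1r9b, among 2 genes higher and 41 lower of 32978 (16636 without an adjusted p). Without the filter on low counts Neurl1a passed in edgeR, among 0 genes higher and 15 lower of 32978. For Neurl1a the difference in CD45 minus that in flow-through was -1.24 (SE 0.24, edgeR adjusted p = 0.178), for Ppp1r9b -0.55 (SE 0.11, adjusted p = 0.178) and for Agap2 -1.11 (SE 0.24, adjusted p = 0.233). In the CD45 fraction these 3 were at 0.10, -0.06 and -0.06 between genotypes. Dlgap2 (-0.83) and Shank3 (-0.69) had the same sign, and Nlgn3 (1.30) the opposite one. Nlgn3 was low in CD45 libraries, at 0.0295 to 0.117 CPM per kilobase of exon.

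Between fractions the members differed far more than between genotypes. In CD45 against flow-through libraries, 32 of 40 members were lower, 5 higher and 3 not called (Homer3, Iqsec2 and Baiap2), while 44.7% of all genes were lower and 41.4% higher. The median was -2.66 log2 units over the members, -3.19 over general neuron genes, -5.45 over astrocyte genes, -6.16 over oligodendrocyte genes and -0.05 over all genes. On one scale over the 14 libraries, the CD45 libraries lay all below the flow-through for 30 members and all above for 3, against 36.4% and 33.1% of all genes.

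The lowest in CD45 relative to flow-through were Lrrtm2 (-5.52, SE 0.27), Nlgn1 (-5.03, SE 0.23), Lrrc7 (-4.22, SE 0.35), Dlg2 (-4.05, SE 0.26) and Nlgn3 (-4.02, SE 0.21), 3 of them adhesion proteins. Nlgn1 ran from 16.3 to 21.4 CPM in the flow-through and from 0.203 to 1.52 CPM in CD45 libraries, where its counts were 4 to 27. Lrrtm2 ran from 27.2 to 36.9 CPM and from 0.105 to 1.63 CPM in the same fractions. The ranges of both genes are far apart.

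At the other end 5 genes were higher in CD45. Neurl1a ran from 6.07 to 22.7 CPM in the flow-through and from 29.6 to 45.4 CPM in CD45 libraries (1.59, SE 0.12, edgeR adjusted p = 3.68e-09). Iqsec1 ran from 144 to 212 CPM and from 313 to 700 CPM (1.26, SE 0.13, edgeR adjusted p = 1.25e-07), and Ppp1r9b from 204 to 303 CPM and from 310 to 357 CPM (0.44, SE 0.05, edgeR adjusted p = 8.39e-07). These 3 are the members with no overlap and a higher level in CD45. Homer1 (0.34, SE 0.09) and Dlgap4 (0.25, SE 0.08) overlapped between fractions. Without scaling factors Neurl1a and Iqsec1 were the only 2 of the 5 that stayed higher, while Ppp1r9b (-0.08), Homer1 (-0.20) and Dlgap4 (-0.28) changed sign. That setting moved the median of all genes by -0.53 and left 5083 genes higher and 10740 lower, against 7492 and 8091 with TMM. Upper-quartile scaling left 6249 higher and 9303 lower.

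**Figure D5:**
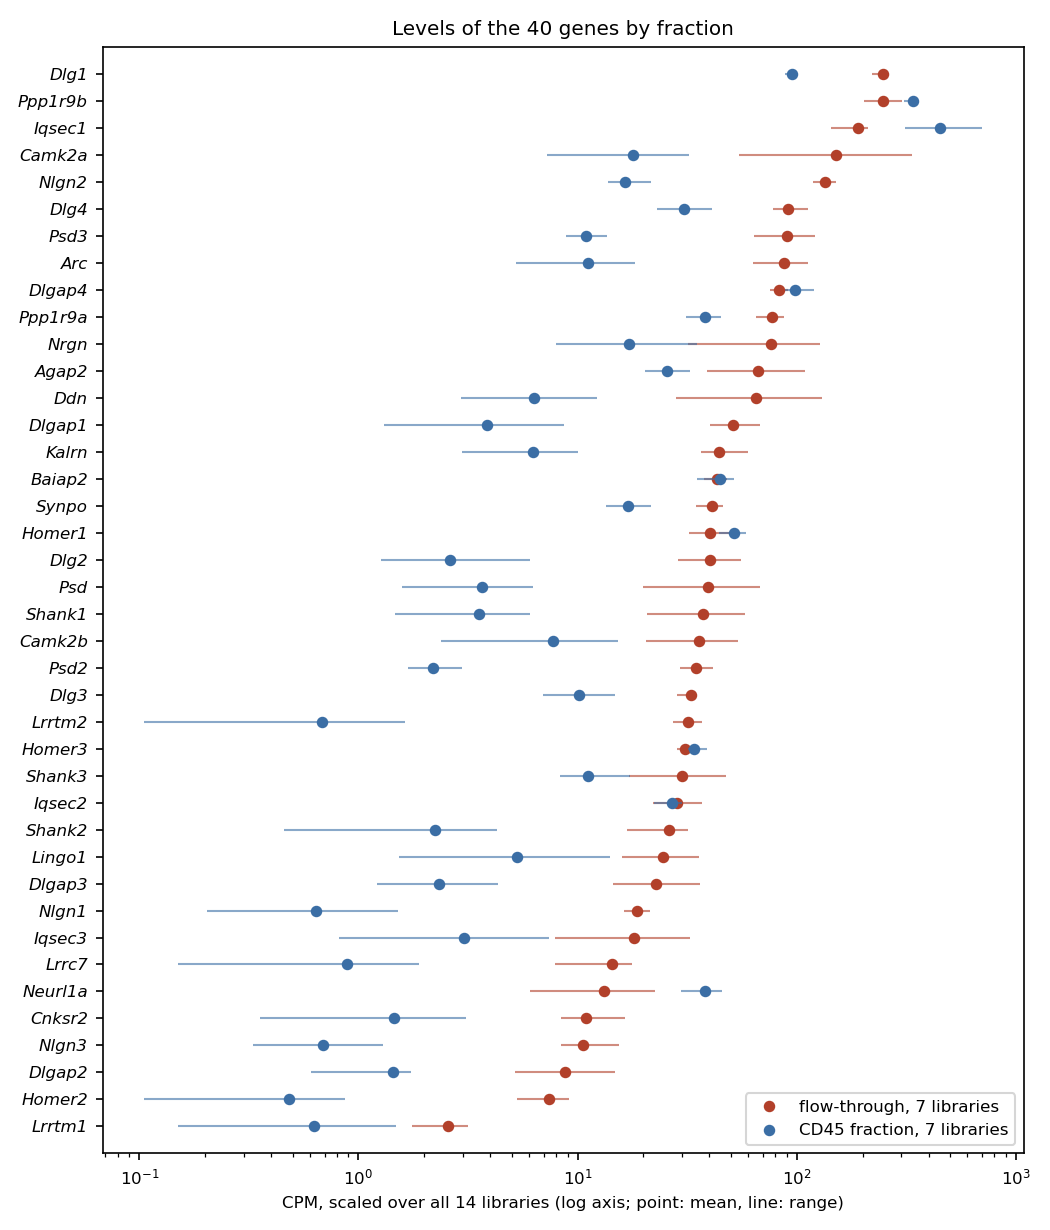
Mean CPM (points) and range over 7 libraries (lines) of the 40 genes in the flow-through (red) and the CD45 fraction (blue), on a log axis, scaled over all 14 libraries and ordered by the flow-through mean. Blue lies left of red for most genes, and right of red without overlap for Neurl1a, Iqsec1 and Ppp1r9b with TMM scaling.

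Levels per kilobase of exon were ordered within each genotype. In WT flow-through libraries Ppp1r9b had the highest mean, 50.1 CPM per kb (range 47.8 to 52.5), and Nrgn the next, 40.3 (26.8 to 56.4), with overlapping ranges. Arc (28.3), Dlg1 (27.4) and Nlgn2 (26.8) followed close together, and Camk2a was seventh at 11.7. In KO flow-through libraries Nrgn was first at 93.9 CPM per kb (79.8 to 107) and Ppp1r9b next at 69.7 (66.2 to 72.0), without overlap. Arc (42.5), Camk2a (41.0, range 25.9 to 54.1) and Ddn (33.5) came after them, and the range of Camk2a covers that of Arc. In the CD45 fraction Ppp1r9b stood above Iqsec1 without overlap in both genotypes, at 56.8 against 37.8 CPM per kb in WT and 54.6 against 28.5 in KO libraries. Homer2 was the lowest of the 40 in the flow-through of both genotypes, at 0.635 CPM per kb in WT and 0.806 in KO libraries, with 1 to 14 counts per library in the CD45 fraction.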

How the data were processed

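Bulk RNA of the CD45 fraction and the flow-through of injured mouse cortex was turned into libraries by a stranded mRNA kit (14 cycles of PCR per the labels' protocols). The authors deposited gene counts, whole reads per gene without normalization, in 1 table per fraction. The normalized signal that the authors also deposited, counts divided by size factors per the file headers, was not tested. Per the submitters' processing notes, tools were Trim Galore, FastQC, STAR 2.7.9a, GRCm38 and DESeq2. How reads were counted, with which strand setting and gene annotation, is not given in the sources used here, so overlapping genes are uncertain (16 members share some exon sequence with another gene, over 5% for Nlgn3, Homer3, Neurl1a and Nlgn1).

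Symbols, GC content and exon length come from GENCODE M21 (33113 of 33223 genes matched). The test was that of edgeR 4.0.16 under R 4.3.3, with TMM scaling, filterByExpr (at least 10 counts in enough libraries, 15 in total), robust quasi-likelihood and Benjamini-Hochberg adjustment over all genes, called at an adjusted p under 0.05. Genotypes were compared within each fraction; fractions and the interaction used 14 libraries with 1 mean per group. CPM are TMM-scaled within a fraction, except that fraction ranges use 1 scaling over 14 libraries, and CPM of the left-out library are unscaled. Intervals are 95%. Replicate numbers are in accession order and pair nothing. Chi-square per degree of freedom was 9.42 to 49.8 in the 18 within-group pairs of libraries, and no pair was treated as a duplicate. On simulated counts, the flow-through fit recovered 79.8% of changes of 1 log2 unit and the CD45 fit 51%, with 8.25% and 9.8% false among calls.

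Members and lists were chosen with earlier results of these data known. Genes with values per library are those called in a genotype comparison (the 14 with the largest fold), the smallest p of a role with none, and in CD45 the 4 smallest p and 6 highest CPM. The 5 highest and 5 lowest are named between fractions, and up to 4 of each other list. Alternatives were DESeq2 1.42.0, other scaling, no filter, a joint fit, GC and length offsets, and leaving out each library. Flow-through WT replicate 5 was left out because its table and markers disagree with its label. The call of 1 neuron list gene is not reported here.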

Additional observations from a re-analysis of the deposited data

Results flagged for a closer look

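Across 80 groups of 4 libraries, 2 members had a library far from the other 3, and chance alone marks about 1 in 20 groups. Dlg3 stood at 42.1 CPM in flow-through WT replicate 1, against 39.4 to 39.8 CPM in the other 3 WT libraries, a gap that is wide only beside their close agreement. Dlgap4 stood at 96.4 CPM in CD45 KO replicate 4, against 73.8 to 74.3 CPM in the other KO libraries, and CD45 WT replicate 3 was at 99.7 CPM. In the library left out of the comparisons, Ppp1r9b was at 312 CPM, above the 4 flow-through WT libraries whose label it shares (243 to 267 CPM) and near the CD45 libraries.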

How the results depend on the processing

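No paired analysis was possible because the labels carry no replicate numbers. The count of members higher in the KO flow-through was 0 with WT replicate 5 entered as labelled and 4 in a joint fit of the 4 groups. It was 8 with the GC and length trend removed, 11 to 17 with 1 library left out and 15 to 22 in the other settings. Over all genes, the count higher was 235 as reported, 117 to 253 with 1 library left out, 492 without a filter and 355 by DESeq2. Without a filter, 1 member was lower (Nlgn3), among 137 genes lower. Between fractions, members higher numbered 3 with upper-quartile scaling, 2 without scaling factors (added after seeing the data) and 2 in KO libraries alone, and 5 to 6 with 1 library left out. Of 14 sign changes in 6 members, 8 were in Baiap2 (0.01 as reported), and those past the threshold in either setting came without scaling factors for Dlgap4 (-0.28), Homer1 (-0.20), Homer3 (-0.39), Ppp1r9b (-0.084) and Baiap2 (-0.52), and with upper-quartile scaling for Baiap2 (-0.24). In the interaction 1 member passed without the filter, among 15 genes, all lower. With DESeq2 3 members passed, among 2 genes higher and 41 lower. The causes were not tested. Over single members, 55 of 600 flow-through values lost a call, 16 gained one and 0 turned sign among called genes. In the CD45 fraction 559 values stayed uncalled. Low counts limit Homer2, Nlgn1, Nlgn3, Lrrtm1 and Lrrtm2 in CD45.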

Other observations

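In the library left out, labelled flow-through WT, the 40 members summed to 1267 CPM without scaling. This was within the 1065 to 1420 CPM of the CD45 libraries and below the 2255 to 3622 CPM of the flow-through libraries.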
